A study of Rattus norvegicus with 6 samples.

Results

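The genes described here make, sense, import, store and export cholesterol and its precursors. They are 32 rat genes chosen by their place in the pathway: 18 synthesis enzymes, 4 regulators, 5 genes of uptake and movement within the cell, 2 esterifying enzymes and 3 efflux transporters. Every probe whose accession maps to the current symbol of one of them was taken, which gave 62 of 61573 probes and 32 of 15284 named genes. All 32 genes had at least 1 probe bright enough to be tested, and 31 of them were well above background on all 6 arrays. The other, Abcg8, met the filter only through the BBMP group, where its signal was higher, so its difference is given as values with no test. The counts below keep all 32 genes as their base, and no count of called genes includes Abcg8.

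Liver RNA came from male Sprague-Dawley (Crl:CD(SD)) rats, bought at 5 weeks of age. One group received corn oil alone (n = 3), and the other received 1000 mg/kg/day of 2,2-bis(bromomethyl)-1,3-propanediol (n = 3), a brominated flame retardant called BBMP below. The study's design text places the measurement at 28 days, whereas its treatment protocol gives 9 weeks, and the labels do not settle which length applies. Each animal was read on 1 single-colour Agilent array, and replicate numbers name the animals (corn oil 1 to 3, BBMP 1 to 3).

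Between 60.1% and 64.4% of the probes of an array gave a signal well above background, and precision is limited by the number of arrays. The whole liver was sampled, so fewer cells of a type and less RNA per cell cannot be told apart. Of the hepatocyte markers listed, all 9 tested were well above background on all 6 arrays, with albumin (Alb) at a log2 level between 9.80 and 10.06 over the 6 livers. The corn oil arrays shared 1 slide and the BBMP arrays the other. An effect of the slide or its scan and an effect of BBMP therefore cannot be told apart in what follows.

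Cholesterol is built from acetyl-CoA through mevalonate, isoprenoid units, squalene and lanosterol. When sterol in the endoplasmic reticulum is low, the escort protein SCAP carries the transcription factor SREBP-2 (gene Srebf2) to the Golgi, where it is cut and released to switch on nearly all of these enzymes, and the INSIG proteins hold SCAP back when sterol is plentiful. Oxysterols act in the other direction through the liver X receptors, whose targets include the export pumps Abca1, Abcg5 and Abcg8 and the ubiquitin ligase Mylip.

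All levels below are the log2 ratio of a probe's processed signal to that array's 75th percentile, and all differences are BBMP minus corn oil on that scale, with the standard error (SE) of the limma fit. The levels of different genes cannot be ranked against each other, because probes differ in brightness for the same amount of RNA.

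All 18 synthesis enzymes had a lower mean in BBMP livers than in corn oil livers, and the efflux transporters Abca1 and Abcg5 had a higher one, but none of the 32 genes passed the test after adjustment. The synthesis enzymes differed by a median of -0.39, with single genes from -0.81 to -0.05. Abca1 differed by 0.19 and Abcg5 by 0.36. The median over all 28112 features tested was -0.01, and 52.5% of them had a lower mean after BBMP and 47.5% a higher one.

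Over all features, limma with Benjamini-Hochberg adjustment called 2 (0.00711%) at an adjusted p under 0.05, and 0 of the 32 genes were among them, their adjusted p lying between 0.387 and 0.960. At an unadjusted p under 0.05, 11 of the 32 genes were lower after BBMP and 0 were higher, against 6.09% and 4.7% of all features. In 13 of the 32 genes, each read by its brightest tested probe, every BBMP liver lay below every corn oil liver. This was the case for 9.58% of all features. In 0 of the 32 did every BBMP liver lie above, against 8.23%. The 18 enzymes held 9 of the 11 genes and 8 of the 13.

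**Figure D1:**
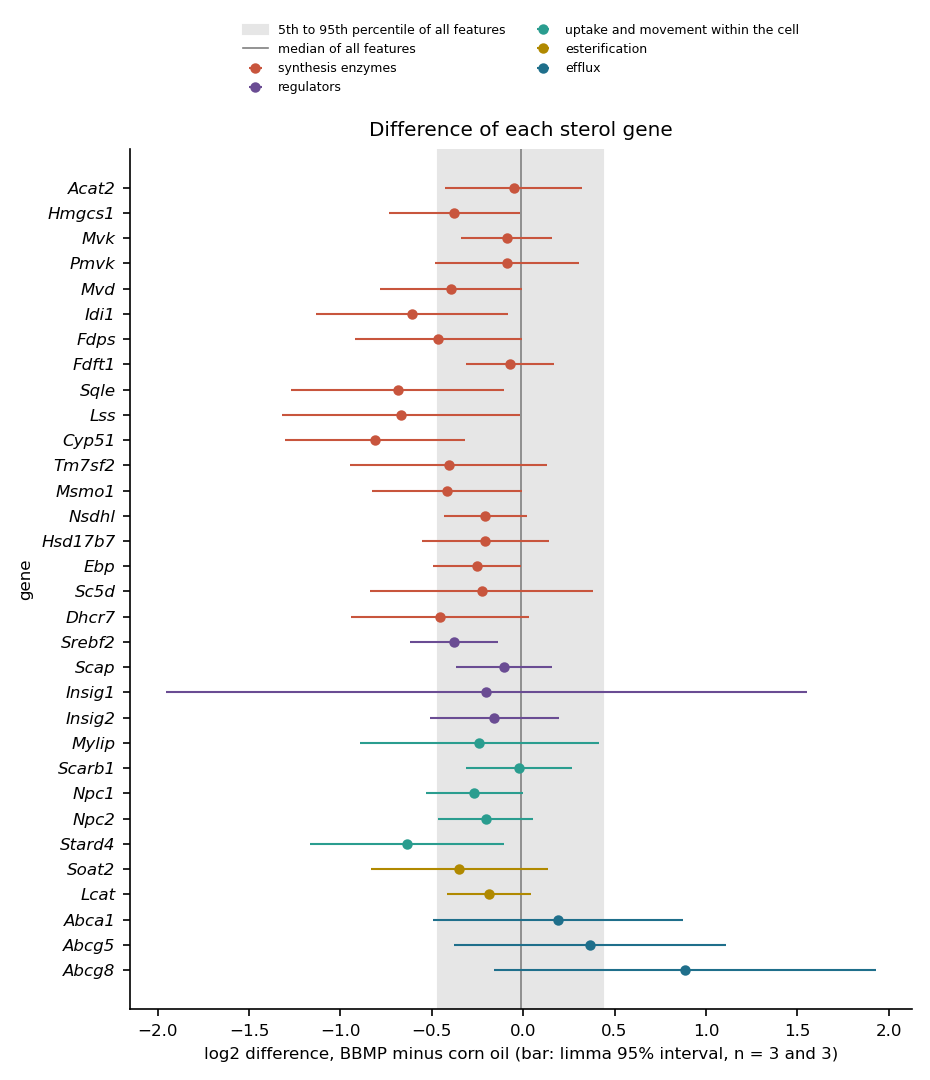
Log2 difference (BBMP minus corn oil, x axis) of each of the 32 genes (y axis), coloured by role; points are limma estimates and bars 95% intervals (n = 3 and 3), and the grey band spans the 5th to 95th percentile of all features (-0.47 to 0.44), with their median as a line. All 18 synthesis enzymes lie left of 0, and the 3 efflux transporters lie right of it. Abcg8 met the filter only through the BBMP group, so its bar is not to be read as a test. Cyp51, Sqle, Lss, Idi1 and Stard4 lie below the band and Abcg8 lies above it.

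The steps from acetyl-CoA to isopentenyl diphosphate had the smallest differences, with a median of -0.09 over 5 enzymes. Hmgcs1, the synthase that makes HMG-CoA for this pathway, and Mvd had larger differences. Of the 5, only Hmgcs1 had groups that did not overlap on the brightest probe. Its level was 6.96, 7.35 and 7.30 in corn oil livers 1 to 3 and 6.90, 6.63 and 6.95 in BBMP livers 1 to 3, a difference of -0.38 ± 0.15 (limma adjusted p = 0.454). The gap between the groups was narrow, since corn oil 1 stood just above BBMP 3 and BBMP 1. On both dimmer Hmgcs1 probes the groups overlapped, with BBMP 3 above corn oil 1 (5.17 against 5.16, and 1.40 against 1.23).

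Mvd, which decarboxylates mevalonate diphosphate, read 0.32, 0.24 and 0.08 in the corn oil livers and -0.22, 0.11 and -0.44 in the BBMP livers. Its difference was -0.39 ± 0.16 (limma adjusted p = 0.458), and BBMP 2 lay inside the corn oil range. The thiolase Acat2 (-0.05 ± 0.16), mevalonate kinase Mvk (-0.09 ± 0.10) and phosphomevalonate kinase Pmvk (-0.09 ± 0.16) had overlapping groups. Their 95% intervals ran from -0.43 to 0.32, from -0.34 to 0.16 and from -0.48 to 0.30.

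Both isoprenoid enzymes passed the unadjusted threshold, with a median of -0.54. Idi1, the isomerase that makes dimethylallyl diphosphate, had levels of 1.95, 1.84 and 2.40 in the corn oil livers and 1.45, 1.78 and 1.13 in the BBMP livers. On this probe every BBMP liver was below every corn oil liver, by a mean of -0.61 ± 0.22 (limma adjusted p = 0.432), or -34.4% in signal. On the dimmest Idi1 probe the groups overlapped, with BBMP 2 at -0.58 and corn oil 2 at -0.73. Fdps, which joins the units into farnesyl diphosphate, was at 4.49, 4.16 and 4.53 against 4.0, 4.20 and 3.59 (-0.46 ± 0.19, limma adjusted p = 0.459). The Fdps groups overlapped on this probe, because BBMP 2 stood just above corn oil 2, and without BBMP 3 the difference was -0.29. On both dimmer Fdps probes the groups did not overlap, with BBMP 2 below corn oil 2 (3.60 against 3.62, and 3.13 against 3.22).

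From farnesyl diphosphate through squalene to lanosterol the median over 3 enzymes was -0.67, and Fdft1 stood apart from Sqle and Lss. Squalene epoxidase, Sqle, a control point of the pathway, read 1.84, 1.63 and 2.08 in the corn oil livers and 1.22, 1.58 and 0.70 in the BBMP livers. The groups did not overlap, and the mean differed by -0.69 ± 0.24 (limma adjusted p = 0.426), or -37.9% in signal. Lss, which folds the epoxide into lanosterol, was at 1.37, 1.27 and 1.84 against 1.35, 0.71 and 0.42 (-0.67 ± 0.27, limma adjusted p = 0.457), and here BBMP 1 lay within the corn oil range. Fdft1, the squalene synthase ahead of both, differed by -0.07 ± 0.10, with a 95% interval from -0.31 to 0.17.

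The 8 enzymes that turn lanosterol into cholesterol had a median of -0.33, and in 5 of them the groups did not overlap. Cyp51, the lanosterol demethylase, had the lowest difference of all 32 genes. Its levels were 1.89, 2.00 and 2.30 in the corn oil livers and 1.26, 1.60 and 0.91 in the BBMP livers, a difference of -0.81 ± 0.20 (95% interval -1.30 to -0.32, limma adjusted p = 0.387) or -43.0% in signal. The treated livers were all below the controls, and 1.16% of all features had a difference as low or lower.

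Msmo1, the C4 methyl sterol oxidase that acts after Cyp51, read 4.34, 4.08 and 4.65 in the corn oil livers and 4.07, 3.99 and 3.76 in the BBMP livers (-0.42 ± 0.17, limma adjusted p = 0.458). Nsdhl, which works with it to remove the C4 methyl groups, was at 2.74, 2.59 and 2.74 against 2.43, 2.53 and 2.48 (-0.21 ± 0.09, limma adjusted p = 0.489). In both genes the groups were apart by little: BBMP 1 was close under corn oil 2 for Msmo1, and BBMP 2 for Nsdhl. Without corn oil 3 the Msmo1 difference was -0.27. The sterol isomerase Ebp was even over the corn oil livers, at 6.51, 6.47 and 6.50 in the corn oil livers and 6.33, 6.28 and 6.11 in the BBMP livers (-0.25 ± 0.10, limma adjusted p = 0.455).

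Dhcr7, which makes cholesterol from its 7-dehydro precursor, had corn oil levels of 3.23, 2.94 and 2.72 and BBMP levels of 2.15, 2.66 and 2.72. BBMP 3 and corn oil 3 were equal to 2 decimals, so its -0.45 ± 0.20 (limma adjusted p = 0.482) came with groups that only just failed to overlap, and it was -0.27 without BBMP 1. The remaining enzymes of this stretch overlapped between groups. They were the sterol reductase Tm7sf2 (-0.41 ± 0.22), the ketosteroid reductase Hsd17b7 (-0.21 ± 0.14) and the desaturase Sc5d (-0.23 ± 0.25). Without BBMP 3 these were -0.24, -0.11 and -0.052.

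**Figure D2:**
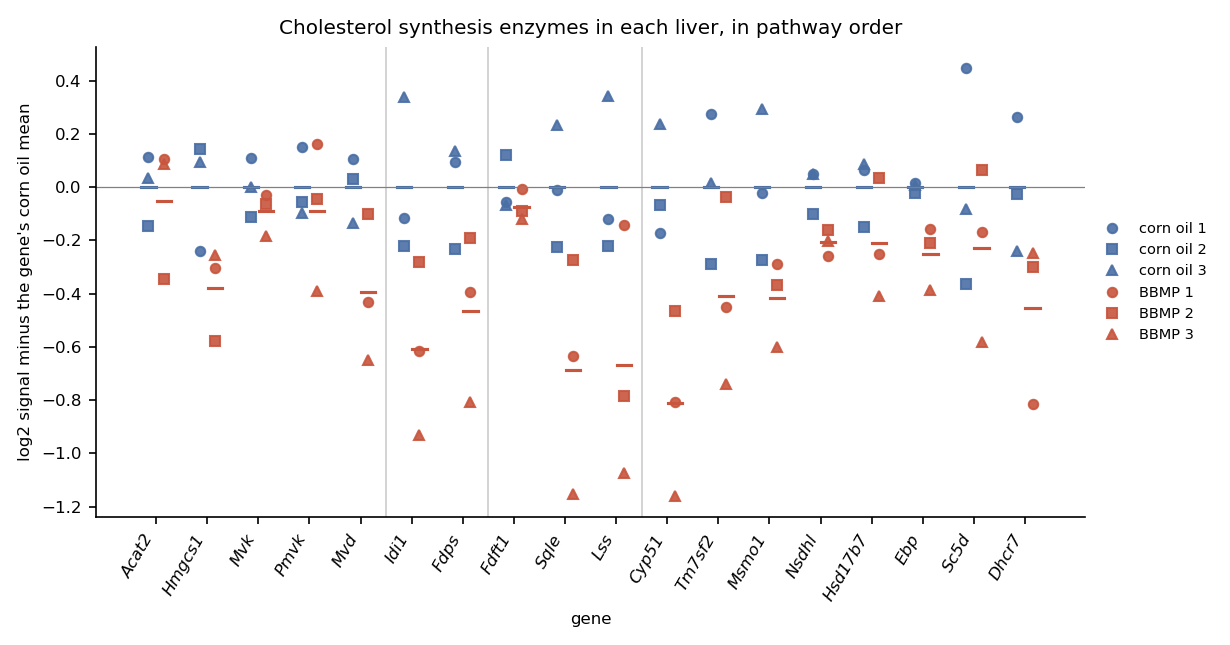
Log2 signal of the 18 synthesis enzymes in each liver, minus that gene's corn oil mean (y axis), in pathway order (x axis); each point is 1 animal, short bars are group means, colours mark the groups and symbols the replicate numbers. The BBMP means lie lowest at Cyp51, Sqle, Lss and Idi1, and BBMP 3 is the lowest of the 6 livers in 14 of the 18 enzymes.

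The lower means were uneven over the treated animals. BBMP 3 was the lowest of the 6 livers in 14 of the 18 enzymes (77.8%), against 20.1% of all features, while BBMP 1 and BBMP 2 were lowest in 2 each and no corn oil liver was lowest in any. Corn oil 3 was highest in 8 enzymes and corn oil 1 in 7. Averaged over the 18 enzymes, deviations from each gene's mean were 0.23, 0.06 and 0.25 in corn oil livers 1 to 3 and -0.12, -0.05 and -0.36 in BBMP livers 1 to 3.

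Without BBMP 3 the median over the enzymes was -0.25 in place of -0.39, and 17 of 18 still had a lower mean. Cyp51 then differed by -0.64, Sqle by -0.45 and Idi1 by -0.45. With all arrays, 11 of the 32 genes were lower at an unadjusted p under 0.05, against 6.09% of all features. Without corn oil 3 there were 3, against 6.31% of all features, and without BBMP 1 there were 4, against 4.66%. Without corn oil 1 there were 5 (5.63% of all features), without BBMP 3 there were 5 (5.25%), without corn oil 2 there were 7 (3.51%) and without BBMP 2 there were 8 (5.20%). The count without corn oil 3 was thus the nearest to the share of all features.

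Among the regulators, Srebf2, the gene of SREBP-2 and itself one of its targets, had the clearest separation. It read 2.45, 2.37 and 2.31 in the corn oil livers and 1.91, 2.10 and 1.98 in the BBMP livers, a difference of -0.38 ± 0.10 (limma adjusted p = 0.393). Here the treated livers were close together and all below the controls, and without BBMP 3 the difference was -0.37. A second Srebf2 probe gave -0.44 ± 0.15, and the third was too dim to be tested. The escort Scap (-0.11 ± 0.11) and the retention protein Insig2 (-0.16 ± 0.15) overlapped between groups.

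Insig1, the sterol-regulated partner of Insig2, parted the treated animals from each other. Its level was 5.80, 4.95 and 5.67 in the corn oil livers and 6.05, 6.24 and 3.53 in the BBMP livers. BBMP 1 and BBMP 2 were above every corn oil liver and BBMP 3 was below every one, so the standard deviation was 0.46 in the corn oil group and 1.52 in the BBMP group. The mean difference of -0.20 ± 0.73 (95% interval -1.96 to 1.55, limma adjusted p = 0.937) therefore turned to 0.67 without BBMP 3.

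All 4 Insig1 probes showed the low value, at 2.35 to 2.61 below the next treated liver, or 5.08- to 6.10-fold. A range within the treated group as wide as that of Insig1 was found in 0.377% of all features. Over the 32 genes the median range was 0.44 within the BBMP group and 0.38 within the corn oil group, against 0.30 and 0.32 over all features.

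**Figure D3:**
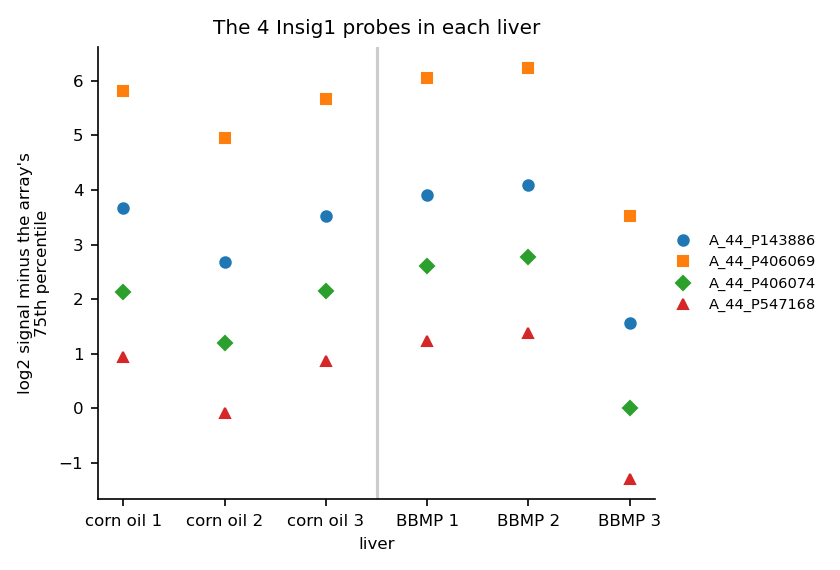
Log2 signal minus the array's 75th percentile (y axis) of the 4 Insig1 probes in each of the 6 livers (x axis); each symbol is 1 probe. With all 4 probes BBMP 3 lies 2.35 to 2.61 below the next treated liver.

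The stretch of 250 bases ahead of 1 transcript start per gene was read from RefSeq's GRCr8 promoter table, which holds 26 of the 32 genes and 15 of the 18 enzymes. For Srebf2 and Hmgcs1 that start lies inside the gene as RefSeq bounds it, so their windows are ahead of that transcript and not of the whole gene. The stretch is shown for the regulators and enzymes with the smallest p that the table holds (Cyp51, Srebf2, Idi1 and Hmgcs1) and for Mvk, whose groups overlapped; this choice was made after their values were seen. Capitals mark the NF-Y box (CCAAT, or ATTGG where it lies on the other strand) and a looser sterol response element (TCACNNCA). The windows are chr4:30991443-30991692 (plus strand) for Cyp51, chr7:115543057-115543306 (plus) for Srebf2, chr17:66547525-66547774 (minus) for Idi1, chr2:53382054-53382303 (plus) for Hmgcs1 and chr12:47819504-47819753 (minus) for Mvk. They are written 5′ to 3′ toward the gene.
Cyp51: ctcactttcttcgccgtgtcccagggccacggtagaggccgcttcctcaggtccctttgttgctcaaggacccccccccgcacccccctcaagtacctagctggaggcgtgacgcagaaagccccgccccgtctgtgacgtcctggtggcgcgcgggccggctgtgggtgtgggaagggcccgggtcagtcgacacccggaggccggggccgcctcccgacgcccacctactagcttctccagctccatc
Srebf2: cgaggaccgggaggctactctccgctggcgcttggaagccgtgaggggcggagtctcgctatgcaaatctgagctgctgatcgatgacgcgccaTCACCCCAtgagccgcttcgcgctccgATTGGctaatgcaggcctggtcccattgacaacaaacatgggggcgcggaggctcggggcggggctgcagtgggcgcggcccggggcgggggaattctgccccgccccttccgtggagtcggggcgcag
Idi1: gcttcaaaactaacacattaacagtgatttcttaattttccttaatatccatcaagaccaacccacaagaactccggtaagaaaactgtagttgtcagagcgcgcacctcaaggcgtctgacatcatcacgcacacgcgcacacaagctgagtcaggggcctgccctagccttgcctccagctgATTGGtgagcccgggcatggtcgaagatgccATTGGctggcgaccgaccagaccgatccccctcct
Hmgcs1: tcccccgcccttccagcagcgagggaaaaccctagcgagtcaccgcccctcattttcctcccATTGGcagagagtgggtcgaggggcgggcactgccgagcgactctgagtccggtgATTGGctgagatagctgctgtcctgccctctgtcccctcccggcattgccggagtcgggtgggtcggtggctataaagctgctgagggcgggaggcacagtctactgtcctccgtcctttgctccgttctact
Mvk: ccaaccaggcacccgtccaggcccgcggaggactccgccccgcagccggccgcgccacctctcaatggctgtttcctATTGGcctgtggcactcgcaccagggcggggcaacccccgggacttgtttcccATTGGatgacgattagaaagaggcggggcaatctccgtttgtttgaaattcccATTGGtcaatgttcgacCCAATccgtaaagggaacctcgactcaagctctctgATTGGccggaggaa

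The Srebf2 window holds 1 looser element (TCACCCCA, from 156 to 149 bases ahead of the start) and 1 NF-Y box. Idi1 and Hmgcs1 hold 2 NF-Y boxes each, Cyp51 holds 0, and Mvk, which differed by -0.09, holds 5. The GC box of the Sp factors (GGGCGG) occurs 4 times in Srebf2 and in Hmgcs1, 2 times in Mvk, 1 time in Cyp51 and 0 times in Idi1.

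Each motif was searched on both strands in all 33469 promoters of the table. The NF-Y box was in 20 of 26 promoters of the genes described (76.9%) and 12 of 15 enzyme promoters (80.0%), against 34.0% of all promoters and 35.7% of those of genes tested on the arrays. The GC box was in 20 of 26 (76.9%) and 13 of 15 (86.7%), against 30.5% and 54.0%. The E-box CACGTG was in 4 of 26 (15.4%) and 1 of 15 (6.67%), against 5.59% and 7.79%. The strict sterol response element TCACNCCAC was in 0 of 26 and thus in 0 of 15, against 0.974% and 1.01%. The looser form, which the strict one overlaps and which was chosen after seeing the data, was in 5 of 26 (19.2%) and 4 of 15 (26.7%), against 12.1% and 9.77%. Its holders were Hsd17b7, Msmo1, Nsdhl, Sc5d and Srebf2. A match says only that the letters are there, and a missing match only that they are not in this window.

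All 5 genes of uptake and movement within the cell had a lower mean, with a median of -0.24. Stard4, which carries cholesterol between membranes in the cytosol, had the lowest. It read 2.25, 2.96 and 2.87 in the corn oil livers and 2.02, 2.30 and 1.86 in the BBMP livers (-0.64 ± 0.22, limma adjusted p = 0.424), or -35.6% in signal, and BBMP 2 overlapped corn oil 1. On a dimmer Stard4 probe the groups did not overlap, at -0.99, -0.91 and -0.95 against -1.29, -1.22 and -1.49 (-0.39 ± 0.11).

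Npc1 and Npc2, which together move cholesterol out of lysosomes, both had groups that did not overlap on the brightest probe. Npc1 was at 4.40, 4.49 and 4.39 in the corn oil livers and 4.26, 3.98 and 4.23 in the BBMP livers (-0.27 ± 0.11, limma adjusted p = 0.463), and its 7 probes ran from -0.31 to -0.16. On some of the dimmer Npc1 probes the groups overlapped, as on 1 with BBMP 1 at 2.60 and corn oil 3 at 2.59. Npc2 was at 2.34, 2.32 and 2.40 against 2.08, 2.05 and 2.31 (-0.21 ± 0.11, limma adjusted p = 0.529), with BBMP 3 just below corn oil 2.

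Mylip, the ligase that marks lipoprotein receptors for breakdown, differed by -0.24 ± 0.27 on its 1 measurable probe, its other probe being below background on all arrays. Scarb1, the receptor that takes up cholesterol from HDL, was the only one of the 32 genes whose probes differed in sign. Its brightest probe read 3.84, 3.63 and 3.94 in the corn oil livers and 3.72, 3.90 and 3.72 in the BBMP livers, a difference of -0.02 ± 0.12 (95% interval -0.31 to 0.27). The other Scarb1 probes gave 0.12 ± 0.19 and 0.14 ± 0.16, so none of them differed by more than its error.

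The esterifying enzymes both had groups that did not overlap, with a median of -0.27. Soat2, which forms cholesteryl esters in hepatocytes, read 0.95, 1.06 and 0.85 in the corn oil livers and 0.81, 0.16 and 0.84 in the BBMP livers (-0.35 ± 0.20, limma adjusted p = 0.558). BBMP 1 and BBMP 3 stood next to corn oil 3, and without BBMP 2 the difference was -0.13. Lcat, which the liver secretes to esterify cholesterol in plasma, was at 6.93, 6.85 and 6.79 against 6.70, 6.73 and 6.58 (-0.19 ± 0.10, limma adjusted p = 0.524).

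The efflux transporters had the opposite sign, and their values depended on which corn oil liver was included. Abcg5 and Abcg8 are neighbouring genes that together encode the pump for sterol into bile. Abcg5 read 3.08, 2.34 and 3.55 in the corn oil livers and 3.19, 3.26 and 3.62 in the BBMP livers (0.36 ± 0.31, limma adjusted p = 0.692). Abcg8 read -4.07, -4.77 and -2.94 against -3.02, -3.19 and -2.90, a difference of 0.89. For both genes the treated livers were close together and the corn oil livers spread widely around or below them.

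The Abcg8 signal was near the floor: corn oil 2 was not well above background, and the other Abcg8 probes were not above it on any array. Abca1, which loads cholesterol onto apolipoprotein A-I, was at 0.30, 0.04 and 1.04 in the corn oil livers and 0.71, 0.91 and 0.33 in the BBMP livers (0.19 ± 0.28, limma adjusted p = 0.828). Corn oil 2 was the lowest of the 6 livers for Abca1 and for Abcg5, as it was for 22.0% of all features. It was also the lowest for Abcg8, which is left out of that comparison because it met the filter only through the BBMP group. Without corn oil 2 the differences were -0.020 for Abca1, 0.04 for Abcg5 and 0.47 for Abcg8. Corn oil 3 had the highest corn oil level of each, and without it they were 0.48, 0.64 and 1.38.

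**Figure D4:**
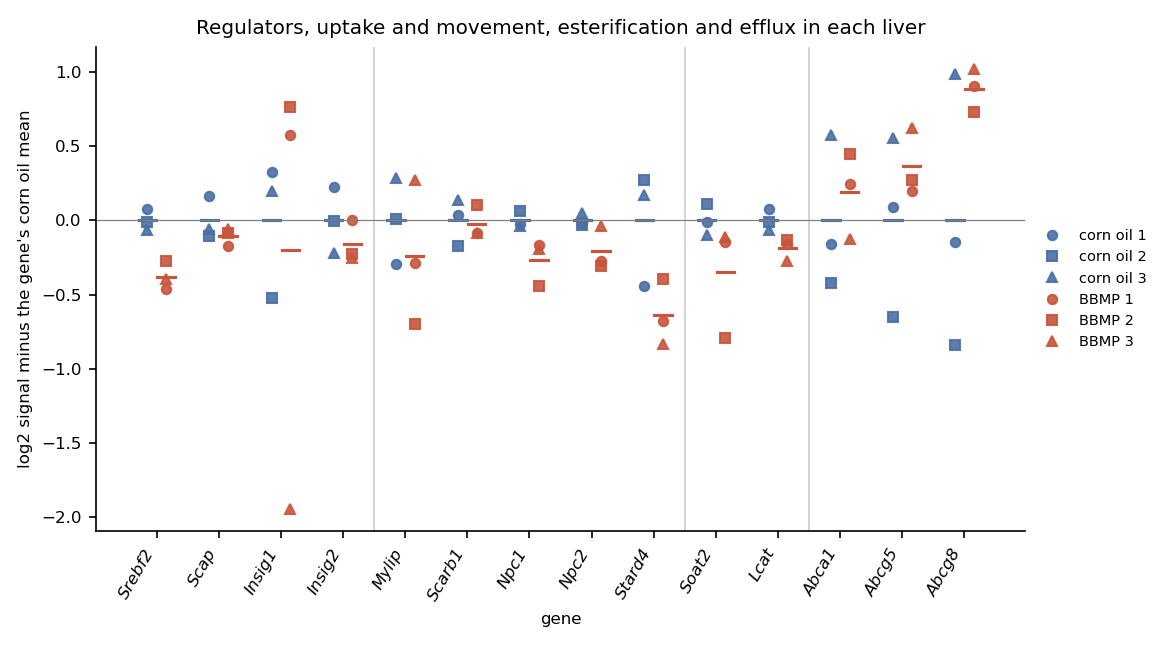
Log2 signal of the regulators, uptake, esterification and efflux genes in each liver, minus that gene's corn oil mean (y axis), by gene (x axis) with grey lines between roles; each point is 1 animal and short bars are group means. BBMP 3 stands far below the other livers at Insig1, the Srebf2 groups are apart, and corn oil 2 is the lowest liver at Abca1, Abcg5 and Abcg8.

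Scarb1 apart, the direction of the differences did not rest on the choice of 1 probe per gene. Whether the groups overlapped did rest on that choice for Hmgcs1, Idi1, Fdps, Npc1 and Stard4. Of the 58 probes of these genes that could be tested, 53 had a lower mean after BBMP, including all 31 of the synthesis enzymes, and 0 passed the adjusted threshold. Of 15 genes with several tested probes, 1 (Scarb1) held both signs. The probes of Cyp51 gave -0.81 and -0.59, those of Sqle -0.79 and -0.69, and those of Lss -0.67 and -0.64. For Idi1 the probes ran from -0.69 to -0.48, for Fdps from -0.46 to -0.41 and for Hmgcs1 from -0.42 to -0.36.

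**Figure D5:**
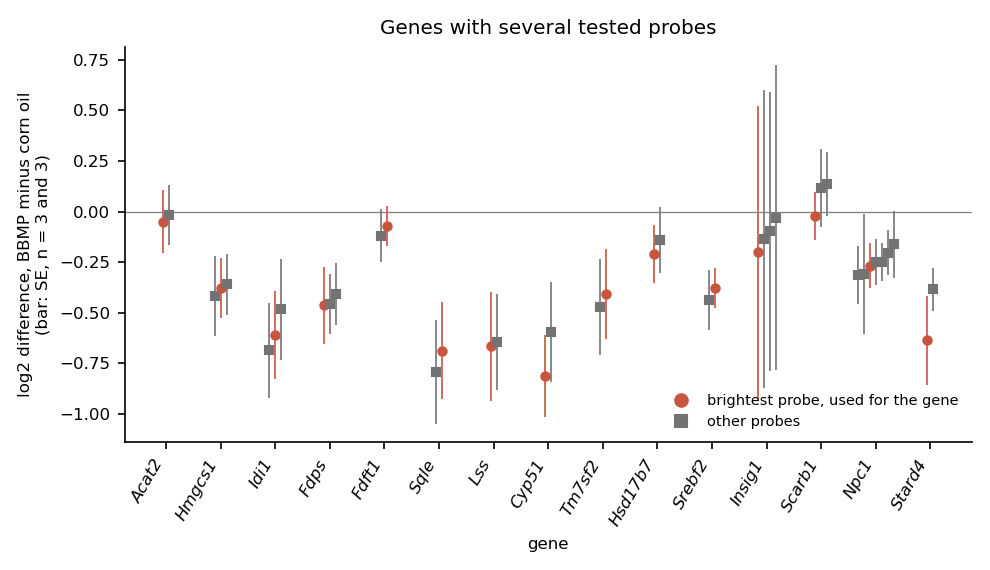
Log2 difference (BBMP minus corn oil, y axis) of every tested probe of the 15 genes with several (x axis); circles are the brightest probe, squares the others, and bars the SE (n = 3 and 3). The probes of each synthesis enzyme lie below 0, and Scarb1 has probes on both sides of it.

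Other genes of sterol handling outside the 32 did not lean one way. Of 21 well above background on all 6 arrays, 10 had a lower and 11 a higher mean, with a median of 0.0033. None passed the adjusted threshold in limma, and 1 was lower and 1 higher at an unadjusted p under 0.05. Soat1, the esterifying enzyme of most tissues, was not well above background in any BBMP liver and measured 1.64-fold lower there (difference -0.71). It met the filter only through the corn oil group and is given with no test. Each BBMP value exceeded the lowest signal well above background on its array. The Soat1 probe itself was not well above background there, so the 1.64-fold is a rough value. Rnf139, a sterol-sensing ubiquitin ligase, differed by 0.30 ± 0.11 (limma adjusted p = 0.424).

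Liver X receptor genes, their targets and bile acid enzymes numbered 9 tested, 6 with a lower and 3 with a higher mean, a median of -0.12 and 0 at an unadjusted p under 0.05. Those with the smallest p were Cyp7b1, an oxysterol hydroxylase, at -0.44 ± 0.22 (limma adjusted p = 0.517), and Cyp8b1, which sets the cholic acid share of bile acids, at 0.52 ± 0.31 (limma adjusted p = 0.578). Fatty acid genes driven by the related factor SREBP-1 had a median of -0.24 over 13 tested, 9 lower and 4 higher, with 2 lower and 0 higher at an unadjusted p under 0.05.

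Fatty acid synthase, Fasn, was at 0.56, 0.82 and 0.91 in the corn oil livers and 0.17, 0.45 and 0.10 in the BBMP livers (-0.52 ± 0.14, limma adjusted p = 0.401), with no overlap. The fatty acid elongase Elovl5 differed by -0.28 ± 0.11 (limma adjusted p = 0.457). None of these 3 lists held a gene past the adjusted threshold. Of all features, 6.09% were lower and 4.7% higher at an unadjusted p under 0.05.

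Cholesterol synthesis in rodent liver follows feeding and the time of day, so genes of both were read beside it. Of 13 clock genes tested, 7 had a lower and 6 a higher mean (median -0.15), with 3 lower and 0 higher at an unadjusted p under 0.05, led by the clock output factor Tef at -0.39 ± 0.09 (limma adjusted p = 0.379) and the clock repressor Bhlhe40 at -0.98 ± 0.33 (limma adjusted p = 0.422). Of 9 fasting genes, 6 were lower and 3 higher (median -0.28), and 1 was lower and 0 higher at an unadjusted p under 0.05. Pdk4, a kinase that fasting raises, differed by -0.95 ± 0.16 (limma adjusted p = 0.315). The shares of all features at that unadjusted p were 6.09% lower and 4.7% higher. None of the clock and fasting genes passed the adjusted threshold, and the part of feeding or clock time in the sterol values was not tested.

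Markers of liver cell types were read on the same arrays. Of 9 hepatocyte markers 5 had a lower mean (median -0.10), and their summed linear level, in units of each array's 75th percentile, was 4518 to 4731 in corn oil livers and 4047 to 4646 in BBMP livers. All 8 Kupffer cell markers had a higher mean (median 0.35), at a summed level of 53.0 to 88.7 against 69.7 to 90.4. Stellate cell markers were lower in 6 of 9 (median -0.25), with summed levels of 47.0 to 51.8 against 38.7 to 44.9. This sum leans on its brightest probes, Col3a1 (mean 4.46 in corn oil and 4.12 in BBMP livers) and Col1a2 (3.58 and 3.52). In 3 of these 9 every BBMP liver lay below every corn oil liver and in 1 above, against 9.58% and 8.23% of all features. Endothelial markers were lower in 1 of 4 (median 0.18), at 44.5 to 57.8 against 49.4 to 58.4. At an unadjusted p under 0.05, 3 stellate cell markers were lower and 1 hepatocyte marker was higher, against 6.09% and 4.7% of all features. Bile duct markers had a summed level of 1.03 to 1.45 against 1.28 to 1.56 (1 lower of the 3 well above background on all arrays), T and NK cell markers 2.57 to 3.82 against 2.21 to 3.10 (4 of 5 lower), and neutrophil markers 1.73 to 3.79 against 1.17 to 1.98 (3 of 3 lower). None of the markers passed the adjusted threshold in limma. The part of these cells in the sterol values was not tested.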

How the data were processed

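Single-colour arrays of 6 livers were used. The authors deposited scanner files with linear intensity per spot. Per the file headers they came from an Agilent rat design, annotated on rn4, read with Feature Extraction 10.7.1.1, which subtracts background and spatial trend; the submitters' processing notes give 10.7. The authors' deposited value table also holds intensity, divided by 1 constant per array (column medians 0.0971 to 0.1005).

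From these files, log2 of the processed signal minus log2 of each array's 75th percentile (450.1 to 570.5 intensity units) was computed for 61573 probes, without controls, spike-in probes and outlier spots. Accessions named 27460 probes (44.6%) through RefSeq's GRCr8 table. Tests covered features well above background on every array of at least 1 group, by a gene's brightest such probe, and used lmFit and eBayes of limma 3.58.1 under R 4.3.3 (two-sided, Benjamini-Hochberg over 28112 features, threshold 0.05). Each p sets a mean difference against the spread between these animals, moderated by eBayes over all features. It cannot account for variation between the 2 slides. Per-animal values were due for genes at an unadjusted p under 0.05, genes whose groups do not overlap and genes with probes of both signs; Insig1, the efflux transporters and Fasn were added after their values were seen. The genes and lists were chosen with earlier results of these data known. On simulated data (28098 features) the fit recovered 8% of log2 changes of 0.5, 50% of 1, 82% of 2 and 96% of 3. Alternatives were normexp with quantile normalisation, quantile, median scaling, other filters, every probe or the mean of probes, trended robust moderation, the value table, a replicate block and leaving out each array. Normexp used the median spot signal.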

Additional observations from a re-analysis of the deposited data

How the results depend on the processing

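Of 479 values of single genes under 15 alternatives, 470 kept their direction and 9 turned, and none of the 32 genes had an adjusted p under 0.205 in any limma fit. The 18 enzymes all stayed lower under each scaling, and 17 to 18 did when 1 array was left out, with a median of -0.41 to -0.25. Median scaling moved the median of all features to 0.00 and the share lower from 52.5% to 49.3%. The number of the 32 genes lower at an unadjusted p under 0.05, 11 in the limma fit above, was 5 with no filter (4.24% of all features). With the replicate block it was 4 (6.40%). Leaving out 1 array gave 3 to 8 lower, with 3 when corn oil 3 was left out. The number of all features past the adjusted threshold, 2 in the limma fit, was 0 with normexp and quantile normalisation, 0 with the filter on all 6 arrays, 1 with no filter and 0 under the replicate block, and ran from 0 to 4 when 1 array was left out (4 without corn oil 2, 4 without BBMP 3, 0 without corn oil 3). The features at an unadjusted p under 0.05 then numbered 3834, 2832, 3304, 3235 and, without corn oil 3, 3002, against 3034. Genes with groups that did not overlap numbered 13 to 19 without 1 array, chosen after seeing the data, against 13.1% to 17.6% of all features. Deviations of same-numbered samples correlated by 0.089, 0.016 and 0.072. Numbers 1 and 3 correlated best with their own number and number 2 did not, so pairing by replicate number was not established.

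Scarb1 turned to 0.077 as the mean of its probes. Without 1 array the differences ran from -0.13 to 0.10 for Acat2, -0.22 to 0.059 for Pmvk, -0.69 to 0.67 for Insig1, -0.11 to 0.045 for Scarb1 and -0.020 to 0.48 for Abca1. Acat2 turned without corn oil 1 or BBMP 2, Pmvk and Insig1 without BBMP 3, Abca1 without corn oil 2, and Scarb1 without corn oil 3, BBMP 1 or BBMP 3. For these, fewer samples enter the fit; the cause of the other changes was not tested. The filter on all 6 arrays leaves out Abcg8. The signal of Abcg8 and Soat1 lies near background, which limits what their differences show.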

Other observations

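Other genes shared the low value of BBMP 3 at Insig1, and were chosen after their values were seen. Of 26557 features well above background on all 6 arrays, 24 were at least 2 lower on the log2 scale in BBMP 3 than in both other treated livers, against 5 for BBMP 1 and 14 for BBMP 2. Those with a gene symbol include Tcim, Slc10a2, Ephx2, Insig1, Zfp354a, Tmem125, Lpin1 and Hspa1a, and Insig1 was the only one of the 32 sterol genes. Slc10a2, the sodium-dependent bile acid transporter of ileum and bile duct cells, read -0.38, -0.14 and -0.15 in the corn oil livers and -0.74, -0.68 and -4.16 in the BBMP livers. Ephx2, the soluble epoxide hydrolase, read 3.33, 2.29 and 1.49 against 2.49, 2.89 and -0.42. Lpin1, a phosphatidate phosphatase that fasting raises, read -2.13, -2.56 and -0.14 against -0.62, -0.20 and -2.79, so the corn oil livers were far apart as well.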
